A study of Mus musculus with 2 samples.

Results

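The genes described here are 43 mitosis genes of G2 and M phase, a named list looked up among the 27998 genes of the deposited table. All 43 had 1 row each, and all were detected in both libraries. They were sorted by role into 8 genes of the Cdk1 module (Cdk1, Ccna2, Ccnb1, Ccnb2, Cks1b, Cks2, Cdc25c, Cdca3), 4 chromosome genes (Top2a, Smc4, Mki67, Hmgb2), 8 centromere and checkpoint genes (Cenpa, Cenpe, Cenpf, Hjurp, Ndc80, Nuf2, Bub1, Ttk), 3 genes of the chromosomal passenger complex (Aurkb, Birc5, Cdca8), 15 spindle genes (Aurka, Tpx2, Kif11, Kif2c, Kif20b, Nusap1, Ckap2, Ckap2l, Tacc3, Hmmr, Dlgap5, Psrc1, Nek2, Gtse1, Tubb4b), 2 genes of the anaphase-promoting pathway (Cdc20, Ube2c) and 3 cytokinesis genes (Anln, Ect2, Kif23).

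The study made 2 single-cell 10x Genomics libraries from mouse bone marrow, 1 per group, and each pooled cells of 3 naive mice on a C57BL/6 background. The group called marrow here held cells sorted as CD45+, CD3- and Ly6G-. The other group, called Car1-GFP here, came from a Car1-GFP reporter mouse and was sorted on CD45 and on GFP expressed under Car1, the gene of the carbonic anhydrase of erythroid progenitors. For each, 10000 sorted cells were loaded. The CD3 gate removes T cells and the Ly6G gate removes the neutrophils with most surface Ly6G, while erythroid cells lose CD45 as they mature, so that both gates bear on which stages could be seen. The design of the GFP construct is not given in the sources used here. Each group was a single library, so replicates give no spread and no test was made. Every interval covers the error of counting alone, and neither mice, sorting nor preparation enters it.

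Cells that divide switch on these genes in a wave that begins late in S phase and ends as the daughter cells part. Cyclin B with Cdk1 drives entry into mitosis, the spindle and kinetochore genes attach and move the chromosomes, and the anaphase-promoting complex then destroys the cyclins. In marrow, most divisions occur in committed progenitors, and the last divisions of the erythroid and neutrophil lines run alongside the onset of globin and granule protein synthesis. Many promoters of the wave carry a cell cycle homology element, whose core is TTTGAA or TTCGAA and which the DREAM and MuvB complexes bind, together with CCAAT boxes bound by NF-Y.

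Promoter windows were looked up in RefSeq (build GRCm38.p6) from 250 bases before to 50 after each start, and 37 of the 43 genes matched, with 40 promoters. TTTGAA or TTCGAA, searched on both strands, stood in a window of 28 of the 37 genes (75.7%), against 21.7% of all 27025 genes in the table. CCAAT, on both strands, stood in 29 (78.4%), against 41.1%, and 2 or more copies in 64.9%, against 13.3%. Both kinds together stood in 64.9% of the genes, against 8.61%. TTCGAA is its own reverse complement and was counted once, while CCAATTGG holds CCAAT on both strands and was counted as 2 copies. TTTGAA and TTCGAA hold no CCAAT on either strand. A match is a string of letters and not a measured binding site.

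The 250 bases before the start are shown for 5 of the 8 members that followed the other members most closely over single Car1-GFP cells, to set promoters with both motifs beside one with neither. Each is written 5′ to 3′ on the strand of the gene, with every copy of these motifs, on either strand, in capitals.
Hmgb2: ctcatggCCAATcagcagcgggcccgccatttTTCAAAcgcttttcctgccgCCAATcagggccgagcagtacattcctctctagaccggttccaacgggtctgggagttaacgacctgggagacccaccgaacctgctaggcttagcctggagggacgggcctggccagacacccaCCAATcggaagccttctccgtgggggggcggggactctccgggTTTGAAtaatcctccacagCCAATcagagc
Ube2c: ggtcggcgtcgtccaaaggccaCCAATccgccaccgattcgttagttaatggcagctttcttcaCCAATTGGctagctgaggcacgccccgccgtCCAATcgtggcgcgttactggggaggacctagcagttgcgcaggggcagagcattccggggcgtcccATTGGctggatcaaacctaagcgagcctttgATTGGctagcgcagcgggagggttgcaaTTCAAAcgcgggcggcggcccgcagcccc
Top2a: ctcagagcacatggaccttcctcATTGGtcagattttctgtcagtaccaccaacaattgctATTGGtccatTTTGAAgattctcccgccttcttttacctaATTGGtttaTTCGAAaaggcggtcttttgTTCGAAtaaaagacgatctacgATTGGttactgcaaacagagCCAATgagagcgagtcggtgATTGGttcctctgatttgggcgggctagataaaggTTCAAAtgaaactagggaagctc
Ccnb2: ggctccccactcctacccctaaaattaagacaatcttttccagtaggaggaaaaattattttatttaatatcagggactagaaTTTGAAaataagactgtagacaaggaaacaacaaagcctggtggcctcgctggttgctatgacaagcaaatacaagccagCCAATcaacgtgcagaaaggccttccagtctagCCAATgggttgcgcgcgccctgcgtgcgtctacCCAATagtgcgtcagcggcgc
Birc5: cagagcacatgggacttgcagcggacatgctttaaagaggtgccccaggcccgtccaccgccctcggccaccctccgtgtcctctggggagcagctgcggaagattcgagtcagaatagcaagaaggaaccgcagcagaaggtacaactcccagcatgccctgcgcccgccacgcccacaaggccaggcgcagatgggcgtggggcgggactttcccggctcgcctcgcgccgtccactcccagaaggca
The windows are chr8:57511593-57511842, plus strand for Hmgb2, chr2:164769679-164769928, plus strand for Ube2c, chr11:99024190-99024439, minus strand for Top2a, chr9:70421555-70421804, minus strand for Ccnb2 and chr11:117848987-117849236, plus strand for Birc5. Hmgb2, which encodes a DNA-bending chromatin protein, held 2 copies of TTTGAA and 4 of CCAAT in this stretch. Top2a, the topoisomerase that untangles sister chromatids, held 2 copies of TTTGAA, 2 of TTCGAA and 6 of CCAAT. Ube2c, the ubiquitin-conjugating enzyme of the anaphase-promoting complex, held 1 TTTGAA and 6 CCAAT. Birc5, which encodes survivin, held 0 of any of them, as did the window of the spindle gene Nusap1, although both ranked among the 4 members closest to the rest.

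After cells with 10% or more mitochondrial UMIs and, in the marrow library, 171 called doublets were left out, 6268 marrow cells with 8303633 UMIs (median 1031 per cell) and 2400 Car1-GFP cells with 42795219 UMIs (median 15512.5) remained. In the Car1-GFP library 9 doublets were called (0.375%), too few for the caller to have worked, and none were removed. The libraries shared 14 cell barcodes. Marrow cells were clustered without 210 cell cycle genes and named from marker genes, which gave 14 classes with a name besides 55 cells without one and 48 megakaryocyte-like cells. In the Car1-GFP library 1975 cells were erythroid progenitor-like, 198 late erythroid-like and 227 unnamed. Since the depths lay far apart, levels are given as summed UMIs per 1000000 UMIs of the same cells (CPM), and values per cell after thinning to an equal number of UMIs.

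The 43 genes together reached 7058 CPM in the marrow library (95% exact Poisson interval 7001 to 7115), and their level ranged from 2845 to 14160 CPM among named classes with at least 50 cells. The B lineage-like cells stood highest at 14160 CPM (13270 to 15093), although this rests on 58 cells and 942 member UMIs. Late erythroid-like cells followed at 11107 CPM (10728 to 11495), then immature neutrophil-like cells at 8331 CPM (8211 to 8453) and classical monocyte-like cells at 8089 CPM (7970 to 8211). Those last 2 classes differed little beside the others, while the steps above them exceeded their counting intervals.

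Erythroid progenitor-like cells reached 6905 CPM and basophil or mast cell-like cells 6697 CPM, with intervals that overlap. Granulocyte-monocyte progenitor-like cells reached 5781 CPM and lymphoid-primed progenitor-like cells 5540 CPM, again with overlapping intervals. The natural killer and innate lymphoid-like cells (4747 CPM) and the stem and multipotent progenitor-like cells (4576 CPM) came next, with overlapping intervals. Plasmacytoid dendritic-like cells (3979 CPM), maturing neutrophil-like cells (3365 CPM) and conventional dendritic-like cells (2845 CPM) formed the low end. The 11 plasma cell-like cells lay at 1457 CPM on 19 UMIs.

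By the share of cells above a cut at equal depth, late erythroid-like cells came first and classical monocyte-like cells ranked lower than by CPM. By the mean at 600 UMIs, B lineage-like cells led with 9.13 member UMIs per cell, followed by late erythroid-like cells with 6.86. Classical monocyte-like cells held a mean of 4.14 and erythroid progenitor-like cells 3.68, as in the order by CPM. Of cells thinned to 600 UMIs, 93.2% of late erythroid-like, 71.4% of B lineage-like, 67.2% of immature neutrophil-like and 64.8% of erythroid progenitor-like cells held at least 3 member UMIs. The share was 57.3% of basophil or mast cell-like, 55.5% of granulocyte-monocyte progenitor-like and 50.6% of classical monocyte-like cells, then 41.6% of lymphoid-primed progenitor-like cells, 32.5% of stem and multipotent progenitor-like cells, 15.7% of plasmacytoid dendritic-like cells and 13.8% of conventional dendritic-like cells. In the classes of lowest share, the members' UMIs can include RNA free in the droplets, whose part was not tested. The plasmacytoid dendritic-like cells were uneven, with 60.2% of the member UMIs at 600 in the 10% of cells with most. Only 84 of their 502 cells had 1000 UMIs, and of these 59.5% held at least 5 member UMIs at that depth, so that the deeper cells of this class do not stand for all of it. One of its clusters, of 29 cells, also had the neutrophil genes Retnlg and Mmp8 among its top genes.

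**Figure D1:**
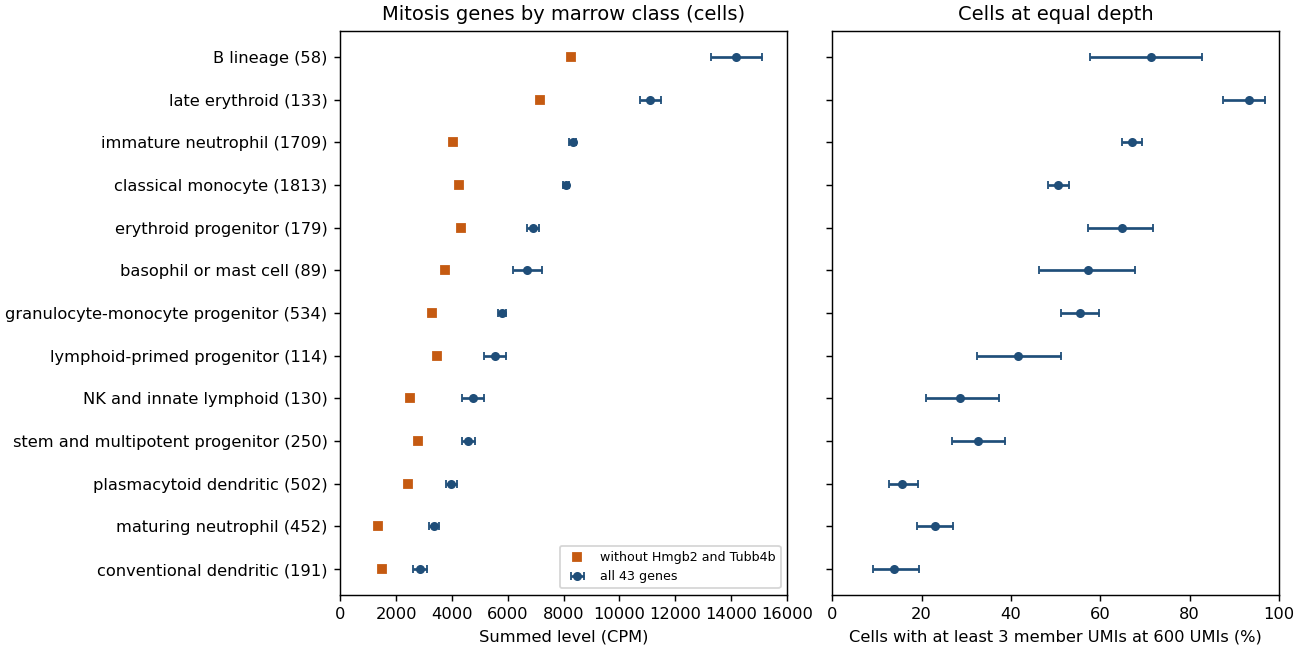
Left, the summed level of the 43 genes in each named marrow class of at least 50 cells (number of cells in brackets), in CPM with 95% exact Poisson intervals, and as squares the same without Hmgb2 and Tubb4b. Right, the percentage of cells with at least 3 member UMIs at 600 UMIs, with exact binomial intervals. B lineage-like and late erythroid-like cells lie at 14160 and 11107 CPM, and conventional dendritic-like cells at 2845 CPM.

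Member by member, B lineage-like cells were the highest class for 29 of the 43 genes, late erythroid-like cells for 11 and basophil or mast cell-like cells for 3. The share of all genes highest in each class was not taken. Several of the 29 rest on few UMIs in the B lineage-like cells, such as Nek2 on 2 and Ndc80, Kif2c and Bub1 on 3 each. Against all other marrow cells, the interval lay above 0 for 20 of the 43. Against all other marrow cells, 26 members were at least 2-fold higher in the B lineage-like cells, with a median log2 ratio of 1.21. Over all genes measured with at least 20 UMIs, 19.2% were 2-fold higher and 37.9% were 2-fold lower. No member with a UMI in these cells was 2-fold lower, while Cdc25c, Psrc1 and Gtse1 were at 0 UMIs, which their depth does not set apart from the level elsewhere. The passenger complex gene Cdca8 stood at 285.6 against 79.6 CPM, the checkpoint kinase gene Ttk at 90.2 against 26.2 and Mki67, the proliferation antigen of chromosome surfaces, at 691 against 228. Ttk rests on 6 UMIs. Nuf2, a kinetochore gene, differed least among the members with a UMI (30.1 against 29.1 CPM, 2 UMIs).

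The 11 members highest in late erythroid-like cells included Ccnb1, the cyclin of mitotic entry, at 178 CPM against 75.2 in the next class. Cks2, the small Cdk-binding subunit, reached 753 CPM there and 587 in erythroid progenitor-like cells. Ect2, the exchange factor that starts the cleavage furrow, was highest in basophil or mast cell-like cells at 98.6 CPM against 45.1 in the next class, while the other 2 members of that group, Cdc25c and Gtse1, rested on 2 UMIs each. Maturing neutrophil-like cells were the lowest class for 18 members and conventional dendritic-like cells for 11. The share of all genes lowest in each class was not taken. Low values are common in the maturing neutrophil-like cells. Against all other marrow cells, 5335 of 10429 genes were at least 2-fold lower there, with a median log2 ratio of -1.04. Of the 43 members 34 were, with a median of -1.82. Hmgb2 made up a large part of every sum, and without it and Tubb4b the B lineage-like cells (8252 CPM) and late erythroid-like cells (7160 CPM) still led, ahead of erythroid progenitor-like (4333), classical monocyte-like (4240) and immature neutrophil-like cells (4041 CPM). Without these genes, the neutrophil class thus no longer stood above the erythroid progenitors.

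**Figure D2:**
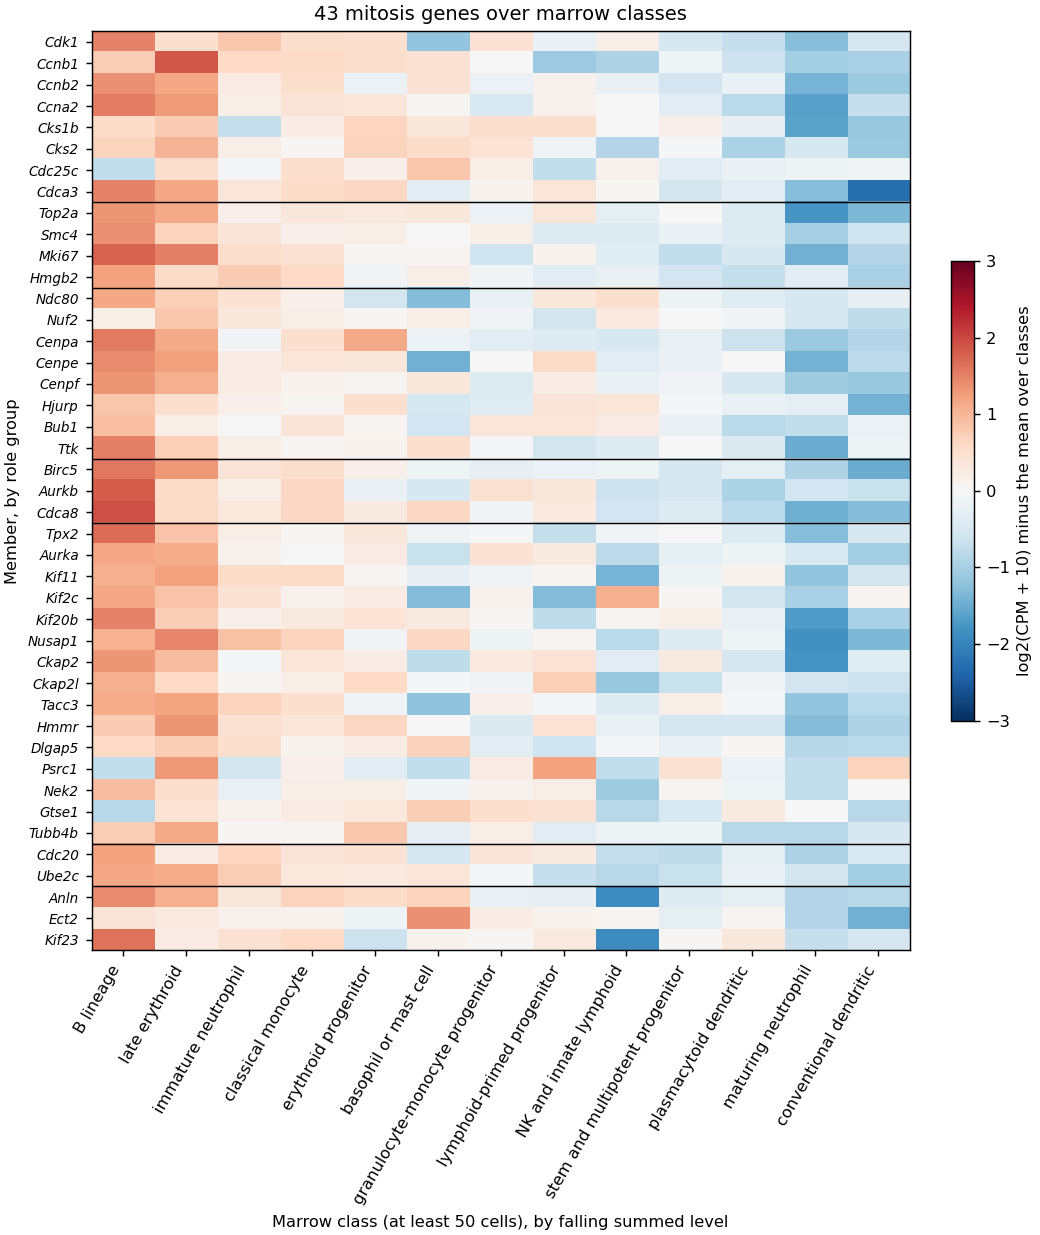
Level of each of the 43 genes in each named marrow class, as log2(CPM + 10) minus that gene's mean over the classes, with genes ordered by role and lines between roles. The columns of B lineage-like and late erythroid-like cells are high across the roles, and those of maturing neutrophil-like and conventional dendritic-like cells low.

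Along the neutrophil line the summed members were higher in the granule-forming cells than in the progenitors and low in the maturing cells. The summed level was 5781 CPM in the 534 cells led by Elane, 7604 CPM in 189 cells led by Fcnb and 8458 CPM in 1520 cells led by Camp and Ngp, the secondary granule genes. It was 3365 CPM in the 452 cells led by Mmp8 and Retnlg. The cells led by Camp lay 0.55 above those led by Elane on the log2 scale (0.51 to 0.59), and the maturing cells lay at -1.33 against those led by Camp (-1.41 to -1.25). The summed level was thus highest in the cells that made secondary granule transcripts. Without Hmgb2 and Tubb4b it was 3305, 4005 and 4047 CPM in the cells led by Elane, Fcnb and Camp. The cells led by Fcnb and Camp then differed little. In the cells led by Camp against those led by Elane, 5 of 42 measured members were at least 2-fold higher and 1 lower. Their median was 0.39, beside -0.60 over all 7691 genes, of which 609 were higher and 2595 lower. A list of S phase genes lay lower with Camp (2177 CPM) than with Elane (3393 CPM). The Ly6G gate thins the maturing end, so these cells are the part of that stage with little surface Ly6G.

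In the maturing cells, 33 of the 40 members measured in that comparison were at least 2-fold lower than in the cells led by Camp, and 0 were 2-fold higher. Over all 6198 genes measured there, 18% were 2-fold lower and 5.81% higher, and the median was -0.16 beside -1.81 for the members. Ckap2, a microtubule-binding gene, had 0 UMIs against 38, Kif20b, a kinesin of late mitosis, had 1 against 69, and Ttk had 1 against 53. Nusap1 stood at 28.2 against 241.2 CPM (log2 -3.10) and Cdk1 at 17.9 against 109.7 CPM (-2.61). The smallest differences were those of Hjurp, the chaperone that loads the centromeric histone, at -0.38, Gtse1 at -0.54 on 3 UMIs, and Cks2 at -0.71. Cks2 and Hmgb2 (1921 against 4232 CPM) thus had many UMIs in the maturing cells, where Ckap2, Kif20b and Ttk had 0 or 1. At equal depth 22.9% of the maturing cells held at least 3 member UMIs of 600.

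Among the monocyte-like cells, the 1405 cells led by Fn1 and Ccr2 reached 7768 CPM and the 408 cells led by Ass1 reached 8731 CPM, a log2 ratio of -0.17. The S phase list (45 genes) differed more between them, at 2073 against 4172 CPM. In summed counts the mitosis genes thus differed less between these clusters than the S phase genes. With every cell weighted equally, the mitosis genes lay further apart, at 6355 against 8617 CPM. The S phase list was not weighted in this way.

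Within the marrow erythroid cells, the late cells stood above the progenitors. With globin UMIs left out of the totals, the members reached 11748 CPM in 133 late erythroid-like cells and 6908 CPM in 179 erythroid progenitor-like cells, a log2 ratio of 0.77 (0.70 to 0.83). Of the 36 members measured, 13 were at least 2-fold higher and 0 lower, beside 8.87% and 9.66% of all genes measured. Nusap1 stood at 387 against 116 CPM (1.74), the spindle gene Tacc3 at 101 against 32.8 (1.63), Mki67 at 612 against 206 (1.57) and Ccnb1 at 188 against 63.9 (1.56). Cdc20, which activates the anaphase-promoting complex, did not share this direction at 43.4 against 48.3 CPM (-0.15, interval -1.26 to 0.87).

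Both erythroid classes together reached 8313 CPM against 6911 CPM in all other marrow cells, a log2 ratio of 0.27 (0.23 to 0.30). Only Cenpa, the centromeric histone, was at least 2-fold higher (382 against 169 CPM), and 0 members were 2-fold lower, beside 17.3% and 23.6% of all genes measured. By direction alone 37 of the 43 lay above 0, with a median of 0.47 beside 0.11 over all 10429 genes. Kif23, a kinesin of the cleavage furrow, was the lowest at 20.7 against 37.0 CPM (-0.84, on 18 UMIs), and Hmgb2 lay at 2686 against 3120 CPM. The difference of the sums fell to 0.04 among cells with at least 1000 UMIs and to 0.06 when the cluster that holds the progenitors was left whole, which puts other progenitors among the erythroid cells. The S phase list differed more, with 19 of 45 genes at least 2-fold higher and 0 lower.

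Between the libraries the summed members differed little, while single members differed in both directions, as genes did over the whole table. On the CPM scale the counts of members 2-fold apart were near or below the shares over all genes. The Car1-GFP sum was 7920 CPM (7893 to 7947) beside the 7058 CPM of marrow, which is 0.17 on the log2 scale (0.15 to 0.18). In Car1-GFP cells 10 of the 43 members were higher by 2-fold or more and 4 were lower by as much, beside 22.5% and 32.7% of the 12076 genes measured. With TMM factors from edgeR, which shift all ratios by 0.39, the counts were 17 and 4, beside 3736 and 3190 of the 12076 genes. Without S100a8 and S100a9, abundant neutrophil transcripts, in the totals the ratio of the sums was -0.0041. At equal depth 71.5% of Car1-GFP cells (69.7% to 73.3%) and 65.6% of marrow cells (64.0% to 67.2%) held at least 5 member UMIs of 1000, after 2997 marrow cells with fewer UMIs were left out. The order of the libraries depended on the cut. At least 3 of 600 UMIs were held by 72.7% of Car1-GFP and 49.7% of marrow cells, while at least 8 of 1000 were held by 40.4% and 48.5%, and at least 10 of 2000 by 71.9% and 76.1%. Unthinned, the shares were 100% and 51.2%, which depth sets.

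The Cdk1 module and the anaphase-promoting genes were on the high side in the Car1-GFP library. All 8 genes of the module lay above 0, with a median of 0.997. Ccnb1 stood at 165 against 58.9 CPM (1.49), Ccnb2 at 166 against 82.0 (1.02), Cks2 at 1074 against 411 (1.39) and Cdca3, which helps the destruction of a Cdk inhibitor, at 192 against 80.7 (1.25). Cdk1 itself stood at 161 against 82.0 CPM (0.97). Cdc20 stood at 139 against 44.8 CPM (1.63) and Ube2c at 310 against 180 CPM (0.78). The passenger genes Cdca8 (213 against 81.3 CPM) and Birc5 (419 against 221 CPM) were higher as well. The highest ratio of all was that of Tubb4b, a tubulin with uses outside mitosis, at 726 against 193 CPM (1.91).

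The 3 cytokinesis genes and 3 of the 4 chromosome genes were on the low side. Kif23 (11.5 against 35.3 CPM, log2 -1.62), Anln, the scaffold of the contractile ring (11.9 against 35.5, -1.57), and Ect2 (12.8 against 34.1, -1.41) were all at least 2-fold lower. So was Kif11, the kinesin that separates the spindle poles (26.0 against 77.2, -1.57). Top2a stood at 232 against 460 CPM (-0.99), Mki67 at 119 against 232 (-0.96) and Hmgb2 at 1840 against 3075 (-0.74). Smc4, a condensin subunit, went the other way at 213 against 188 CPM (0.18). The centromere and checkpoint genes were split, from Ttk at -0.98 to Cenpa at 1.18 (434 against 191 CPM). The spindle genes were split too, with a median of -0.09, which the shift of the TMM factors would bring above 0.

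The same split stood between erythroid cells of the libraries, where class makeup differs less. The sums were 8021 CPM in the Car1-GFP erythroid classes and 8313 CPM in those of marrow, a log2 ratio of -0.05 (-0.09 to -0.02). Here 3 members were higher by 2-fold or more (Cdc20 at 1.62, Cdca8 at 1.25 and Tubb4b at 1.08) and 9 were lower by as much, beside 16.7% and 28.3% of the 10993 genes measured. Lowest were Anln (12.3 against 52.8 CPM, -2.11), Kif11 (26.4 against 92.9, -1.81), Top2a (235 against 654, -1.48) and Mki67 (121 against 331, -1.45). Ect2, Ttk, Ckap2, Dlgap5 and Nusap1 were the other 5. With TMM factors the sum turned to 0.44 and the counts to 11 and 2, beside 3136 and 1774 of the 10993 genes. The direction of the sum thus depends on the scaling. All genes had a median of -0.24 on the CPM scale and 0.25 with these factors, and the order of the members among themselves does not depend on it.

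The late share of the erythroid cells differed, with 198 of 2173 in the Car1-GFP library and 133 of 312 in marrow. The libraries were sorted differently, and the part of the sorts in that share was not tested. It also depended on the clustering, since 24 Car1-GFP cells were late erythroid-like at resolution 0.5 and 25 with cycle genes kept, beside 133 marrow cells in both. In progenitor-like cells alone the sums were 7650 against 6905 CPM (0.15), with 7 members at least 2-fold higher and 6 lower beside 17.6% and 28.4% of all genes. Anln lay at -1.92 and Kif11 at -1.40 there, and Cdc20 at 1.47 and Ccnb2 at 1.35, while the highest ratio, that of Psrc1, rests on 2 marrow UMIs (2.40, interval 0.55 to 5.45). In late cells alone the sums were 12701 against 11107 CPM (0.19), with 6 members higher and 7 lower beside 17.7% and 24.2%. Cdc20 (221 against 41.1 CPM, 2.43), Cdk1 (263 against 85.6, 1.62) and Cdca8 (324 against 106, 1.61) led there, and Anln (-1.96) and Kif11 (-1.48) were again lowest. Within each class the sum was therefore slightly higher in the Car1-GFP cells, where the pooled erythroid classes had it slightly lower.

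Whether a member was higher or lower between the libraries went with the length of its transcript. Over the 43 members, the ratio in erythroid classes and the length of the longest coding transcript of each gene (GENCODE M21) had a Spearman correlation of -0.72, and -0.69 for all cells. In progenitor-like cells it was -0.69 and in late cells -0.67. Over all genes measured it was -0.47 in the erythroid classes and -0.33 over all cells, so the members share a gradient of the whole table. These are descriptions over genes of the same 2 libraries. GC content moved with the ratio as well (0.58 in erythroid classes). For the comparisons inside 1 library, the correlation over members was -0.09 for marrow erythroid against other cells and 0.22 for the globin bins described below.

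In the erythroid comparison the 20 members higher in Car1-GFP cells had a median transcript of 1948 bases (692 to 4375) and the 23 lower ones on the CPM scale a median of 4067 bases (2201 to 11130), beside 2701 bases over all genes. A list of 10 early G2 genes of the set, such as Top2a, Mki67 and Kif11, over 12 late M phase genes, such as Ccnb1, Cdc20 and Cenpa, gave a ratio of 2.38 in the marrow library and 1.07 in the Car1-GFP library. In the erythroid classes that ratio was 1.94 and 1.07. The part that transcript length or library preparation has in these differences was not tested, and library and group cannot be told apart. The ratio of G2 to M phase genes is accordingly given as a value of each library, not as a difference in phase.

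**Figure D3:**
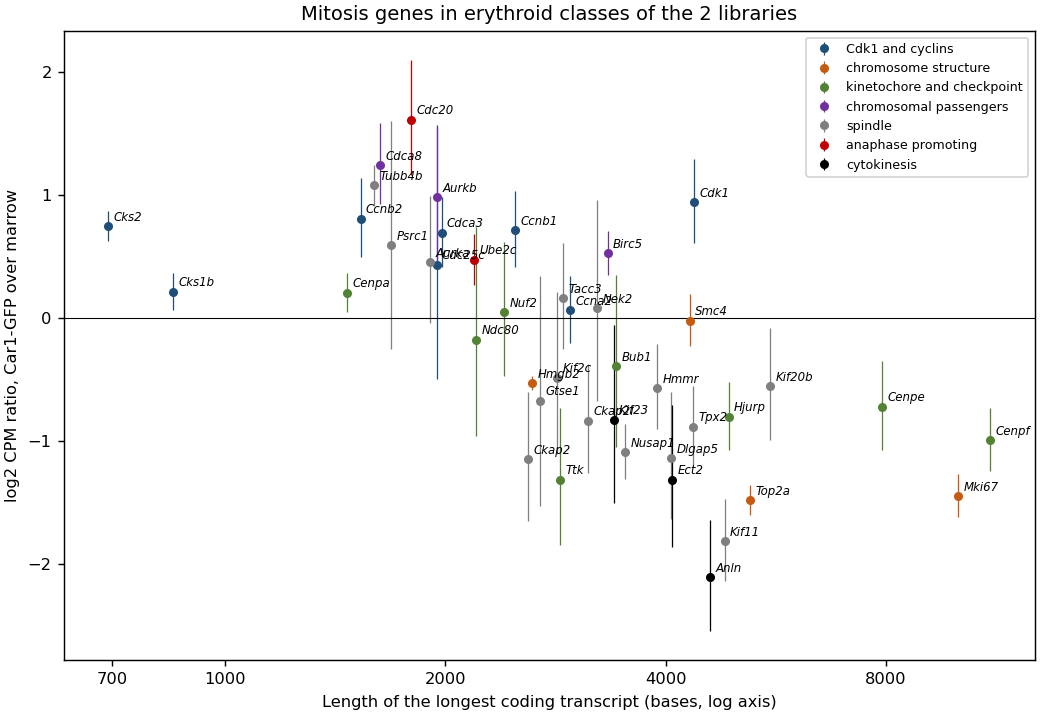
Log2 ratio of each of the 43 genes in erythroid cells, Car1-GFP over marrow, against the length of its longest coding transcript on a log axis. Short transcripts such as Cdc20 and Cdca8 lie above 0 and long ones such as Kif11, Top2a and Mki67 below, with a Spearman correlation of -0.72.

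Inside the Car1-GFP library the summed level was near equal over the lower bins of globin share and higher in the top bin. Cells were ranked by the globin share of their UMIs and cut into 5 bins of 480 cells, with globins left out of the totals. The sums in rising order were 7259, 7212, 6985, 7232 and 11560 CPM, so that the bottom 4 bins lay within a narrow range and the top bin stood apart. The globin share ended at 0.498%, 0.542%, 0.594% and 0.748% in the bottom 4 bins and reached 54.0% in the top bin. At 4500 UMIs per cell, the median cell held 27, 29, 25, 26 and 49 member UMIs. Single cells differed more, with percentiles 10 and 90 of all cells at 16 and 54. Clusters differed as well, such as 5478 CPM in a cluster of 461 cells and 8521 CPM in another of 147, with globins in the totals. Near-equal sums of bins thus do not mean level cells. In the top bin 198 cells were late erythroid-like, and in the others 0.

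Between the highest and the lowest bin the log2 ratio of the sums was 0.67 (0.66 to 0.69). All 43 members lay above 0 and had their peak in the top bin, and 3 of them, Mki67, Tacc3 and Gtse1, were higher at every step. For these 3 the counting intervals of the bottom 4 bins overlapped, so that no graded rise is read from them. The share of all genes higher at every step was not taken. At least 2-fold higher were 10 members and lower 0, beside 5% and 8.77% of all 9913 genes measured, whose median was -0.11 against 0.79 for the members. The largest ratios were those of Dlgap5, a spindle assembly gene (34.2 against 12.6 CPM, 1.44), Kif23 (23.6 against 9.09, 1.38), Nusap1, which bundles spindle microtubules (184 against 75.1, 1.29), and Ndc80 of the kinetochore (21.1 against 9.52, 1.15). The smallest were those of Cks1b (551 against 496 CPM, 0.15), Tubb4b (868 against 724, 0.26), Kif20b (0.29) and Cks2 (1309 against 1043, 0.33).

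Of the genes most abundant in their role groups, Cks2 and Tubb4b were thus at the low end, and the others lay between the ends. Hmgb2 went from 1583 to 2967 CPM (0.91), Cenpa from 410 to 571 (0.48), Birc5 from 359 to 691 (0.94) and Ube2c from 301 to 458 (0.61). Ect2, the most abundant cytokinesis gene over the whole Car1-GFP library, went from 11.4 to 18.1 CPM. Top2a, less abundant than Hmgb2 among the chromosome genes, went from 199 to 363 (0.87). Ccnb1 (150 to 275) and Ccnb2 (143 to 298) differed by like amounts, while Aurka, the spindle pole kinase (41.8 to 88.7, 1.08), differed more than Aurkb of the passenger complex (69.9 to 88.7, 0.34). Every role group had a positive median, from 0.61 for the passenger complex to 0.89 for the chromosome genes. The cells of the top bin were at the same time lower in Gata2 (59.5 to 23.6 CPM), Kit (52.3 to 14.4) and Car1 (643 to 424) and higher in Klf1 (305 to 462 CPM) and Gata1 (179 to 209), the erythroid transcription factors.

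**Figure D4:**
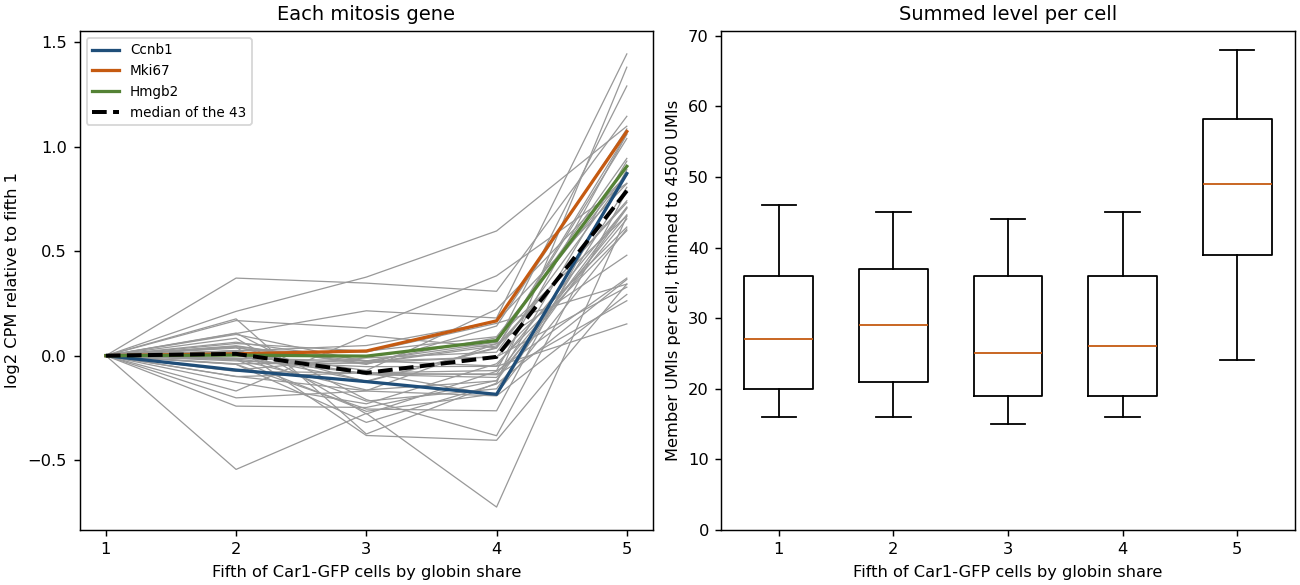
Left, the log2 CPM of each of the 43 genes (grey lines, 3 named in colour, dashed line the median) in the 5 globin bins of Car1-GFP cells relative to the lowest bin, with globins left out of the totals. Right, member UMIs per cell at 4500 UMIs (line, median; box, quartiles; whiskers, percentiles 10 and 90), with medians of 27, 29, 25, 26 and 49.

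Within the top bin the level kept changing with the globin share. It was 10199 CPM in 229 cells with 0.75% to 2% globin, 12669 CPM in 152 cells with 2% to 5%, 14078 CPM in 53 cells with 5% to 10% and 16032 CPM in 16 cells with 10% to 20%. In the 30 cells with at least 20% globin it was 12915 CPM, and their median cell lay at 8539 CPM against 17158 CPM in the bin before. These most globin-rich cells had a median of 5998.5 UMIs against 14401 and ranged from 5303 to 29419 CPM, so that high and low cells were mixed. Hmgb2 (4331 to 2691 CPM), Mki67 (341 to 259) and Top2a (529 to 396) were lower there than in the bin before, while Cks2 (1512 to 1624 CPM), Ccnb1 (316 to 343) and Tubb4b (1048 to 1144) were not.

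Gata2, a transcription factor of early progenitors that erythroid cells switch off, went the opposite way. At 4500 UMIs, 1748 Car1-GFP cells had 0 Gata2 UMIs, 435 had 1 and 217 had at least 2, and their median cell held 33, 24 and 21 member UMIs. The summed level was 5264 CPM at 2 or more and 7758 CPM at 0, a log2 ratio of -0.56 (-0.60 to -0.52). All 43 members lay below 0, 6 were at least 2-fold lower and 0 higher, beside 5.67% and 7.52% of the 9297 genes measured, whose median was 0.02 against -0.67. The lowest were Cenpe, a kinesin of the kinetochore (16.4 against 47.6 CPM, -1.54), Anln (-1.50), Ttk (-1.26) and Nuf2 (16.4 against 35.1, -1.10), with Nek2 and Psrc1 the others. Anln and Ttk rest on 4 and 6 UMIs in the Gata2-high cells. The smallest differences were those of Ndc80 (-0.13), Kif20b (-0.18), Cks2 (879 against 1061 CPM, -0.27) and Cdca8 (-0.29). Of the most abundant members, Hmgb2 lay at 1185 against 1841 CPM (-0.64) and Cenpa at 273 against 424 (-0.63).

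Depth moved with the Gata2 axis. Cells with 0, 1 and at least 2 Gata2 UMIs had medians of 18734.5, 10276 and 6628 UMIs before thinning. The globin bins had medians of 16008, 18577.5, 14958, 10189 and 16943 UMIs, with no trend along them. Over the 2400 cells the member UMIs at 4500 and the depth of the cell had a Spearman correlation of 0.48. When the cells were cut into 5 bins by depth, the cells with 0 Gata2 UMIs and those with at least 1 had median member UMIs of 22 and 19, 24 and 22, 35 and 28, 37 and 36, and 37 and 36 from the shallowest to the deepest bin. The cells with at least 1 Gata2 UMI were lower in every depth bin, by only 1 UMI in the top 2. Among cells with at least 12000 UMIs the ratio of the sums, at 2 or more Gata2 UMIs over 0, was -0.25. That value rests on only 36 cells with 2 or more Gata2 UMIs, against 1233 with 0. For globin, the lower 4 bins and the top bin had medians of 20 and 23, 22 and 50, 26 and 53, 33 and 49, and 36 and 49.5 in the same order of depth. The globin difference was thus present at every depth and smallest in the shallowest cells, and the part of depth in the Gata2 difference was not tested.

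**Figure D5:**
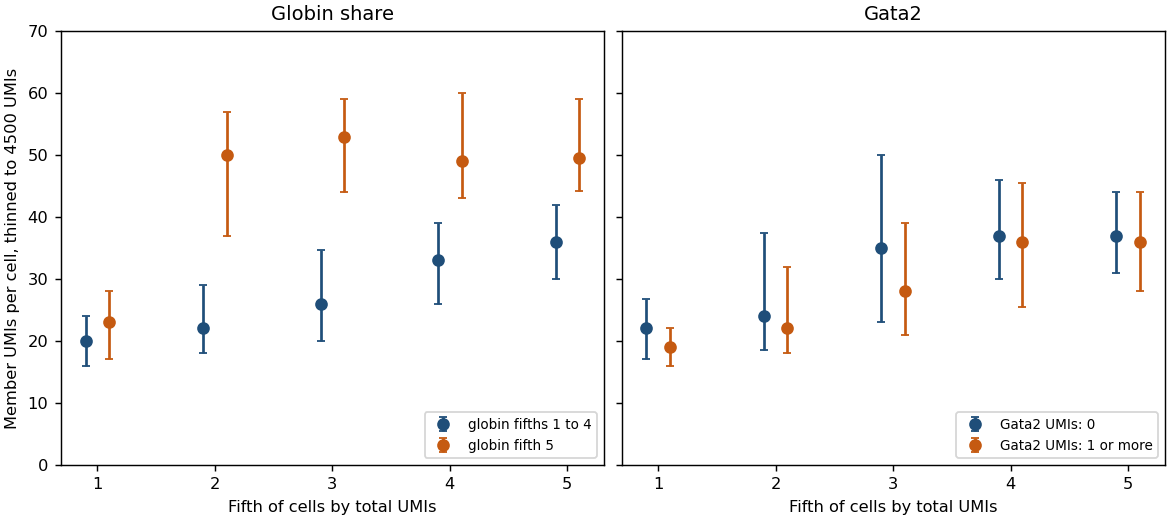
Median member UMIs at 4500 UMIs in 5 depth bins of Car1-GFP cells, split by Gata2 UMIs and by globin bin, with quartiles. The Gata2 medians of the deepest bin are 37 and 36, and the globin medians are 36 and 49.5.

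The axes were also crossed. Within the lowest globin bin, cells with 0 Gata2 UMIs reached 7470 CPM and those with at least 1 reached 6293 CPM, and within the highest globin bin they reached 11704 and 10276 CPM. In all 5 globin bins the cells with a Gata2 UMI were the lower ones. The step from the lower bins to the top globin bin was larger than the step between Gata2 groups inside any bin.

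Over single Car1-GFP cells the members moved together weakly, gene by gene, and clearly in sum. At 4500 UMIs the median cell held 30 member UMIs, with a range of 8 to 102, and the 10% of cells with most held a mean of 63.2 against 20.8 in the lower-ranked 50% of cells. The correlation of each member with the sum of the other 42 was positive for all 43, with a median Pearson r of 0.26 over 2400 cells of 1 library, from 0.08 for Psrc1 and Ndc80 to 0.61 for Hmgb2. At 1000 UMIs the median was 0.10, so the value depends on depth. Of the 903 pairs of members 874 had a positive r, and the highest was that of Hmgb2 and Birc5 at 0.38. The share of positive r over other genes or other pairs was not taken, so these counts are not set apart from it. The sum also moved with the depth of the cell before thinning (Spearman 0.48). The sum had a Spearman correlation of 0.70 with the 55 other mitosis genes, 0.47 with the S phase list, 0.31 with the globin share and -0.29 with Gata2.

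The members differed in their span from low to high cells. From the lower-ranked 50% to the highest 10% of cells ranked by the other members, Kif23 was 8.64 times higher, Nusap1 7.10 times and Cenpe 6.80 times. Kif23 rests on only 38 UMIs in the highest cells and 22 in the lower ones, Nusap1 on 284 and 200, and Cenpe on 121 and 89. Tubb4b was only 1.59 times higher, Cks2 1.73 times and Cks1b 1.88 times, and these were found in most cells: Cks2 in 98.5%, Tubb4b in 93.5% and Cks1b in 83.8%. Nusap1 was found in 26.8% and Kif23 in 5.04%. The broadly present genes Hmgb2 and Tubb4b held 23.4% and 9.15% of all member UMIs. RNA free in the droplets can add to such shares, and its part was not tested.

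Close relatives were not used in fixed proportion. Cks1b took 39.7% of the UMIs of Cks1b and Cks2 in the marrow library and 31.4% in the Car1-GFP library. Among marrow classes it took 27.3% in immature neutrophil-like and 23.5% in maturing neutrophil-like cells, and 45.02% in classical monocyte-like, 54.6% in plasmacytoid dendritic-like and 57.4% in natural killer and innate lymphoid-like cells. Neutrophils were thus the classes in which Cks2 prevailed most. Ccnb1 took 41.8% of the UMIs of both B cyclins in marrow and 49.8% in Car1-GFP cells, with 51.4% in the marrow erythroid progenitor-like and 51.5% in the late erythroid-like cells. Aurka took 38.7% and 43.1% of both Aurora kinases, with 28.8% in classical monocyte-like cells. Ckap2 took 45.2% of the UMIs of Ckap2 and Ckap2l in marrow and 37.2% in Car1-GFP cells.

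The genes outside the set that followed it most closely differed between the libraries. In Car1-GFP cells, among 6174 genes, these included Cd24a (Pearson r 0.57), Fth1 (0.56), Prdx2 (0.53), Car2 (0.52), Tmem14c (0.51), Mgst3 (0.50), H2afz (0.49), Ctse (0.47) and Rrm2 (0.45). Several of these are genes of erythroid maturation, such as the carbonic anhydrase gene Car2, and Rrm2 and H2afz are linked to the cell cycle. In 3271 marrow cells at 1000 UMIs, among 2450 genes, they were Hist1h2ap (0.39), Arl6ip1 (0.36), H2afz (0.36), Calm2 (0.30), Tubb5 (0.29), Tuba1b (0.28), Hmgb1 (0.28), H2afv (0.26), Hist1h2ae (0.24) and H2afx (0.24). All 10 of these are on the list of cycle-linked genes left out of the clustering. That list was chosen with earlier results of these data known, so the match is not independent of them. The points share library and depth, and differences between marrow classes enter the second set.

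Other genes of the cycle were read from 3 further lists. Of the 55 other mitosis genes, 13 were at least 2-fold higher and 1 lower in the top globin bin, led by Cdc25b (1.67), Fbxo5 (1.34), Depdc1a (1.32) and Ccdc34 (1.19), while Cep55 (-2.22, on 4 and 21 UMIs), Fam64a (-0.90), Sapcd2 (-0.37) and Bora (0.03) were lowest. Of the 45 S phase genes 13 were higher and 0 lower, and their sum went from 4136 to 7579 CPM. Replication genes and mitosis genes were thus both higher in that bin. Among 17 measured G1 regulators and inhibitors 5 were higher and 3 lower. Highest were Btg2, an antiproliferative gene (9.52 to 54.9 CPM, 2.53), Ccnd3, the D cyclin of erythroid cells (151 to 641, 2.09), Cdkn2c (35.0 to 102, 1.54) and Rb1 (1.40). Lowest were Ccnd1 (-1.74), Ccnd2 (161 to 54.3 CPM, -1.56), Cdkn1a (-1.26) and Cdk6 (275 to 138, -0.999), so that cyclin D2 and cyclin D3 went opposite ways.

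In the Gata2-high cells 16 of 53 measured other mitosis genes and 7 of 45 S phase genes were at least 2-fold lower and 0 were higher. Kif4 (-2.15), Depdc1a (-2.10) and Kif15 (-1.95) were among the lowest, on 2 to 5 UMIs, and Foxm1, the factor that drives many genes of the wave, had 0 UMIs against 37. The cell cycle inhibitor Cdkn1b was at least 2-fold higher at 25.6 against 8.14 CPM (1.65), as was Ccnd2 (293 against 130, 1.17). Btg1 stood at 0.91 and Cdkn1a at 0.87 on 5 UMIs, with an interval that spans 0. Ccne1 was at least 2-fold lower (47.1 against 111 CPM, -1.24). Cdk2 stood at -0.71, Ccnd3 at -0.68 and Cdkn2c at -0.35, the last with an interval that spans 0.

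Between the libraries, 6 other mitosis genes were at least 2-fold higher and 14 lower in Car1-GFP cells, from Cenpn (1.58), Cenpm (1.38), Sapcd2 (1.31) and Cenpk (1.14) to Cep55 (-4.15), Gas2l3 (-2.89), Depdc1b (-2.22) and Arhgap11a (-1.97). Of the S phase genes 19 were higher and 4 lower, with a median of 0.70 beside 0.18 for the members. Cdkn1b (7.06 against 162 CPM, -4.52), Btg1 (-2.79), Cdkn1a (-2.59) and Ccnd1 (-2.14) were the lowest G1 genes, and Ccne1 (113 against 20.1, 2.49), Cdk4 (418 against 92.0, 2.18) and Trp53 (232 against 70.1, 1.72) the highest. In the erythroid classes Cdkn1b still stood at 6.83 against 83.8 CPM (-3.62), and Cdk4 at 421 against 198 CPM (1.08).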

How the data were processed

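The deposited values were raw UMI counts per gene and barcode, made by the authors with Cell Ranger 2.1 and Seurat 2 on mm10, per the submitters' processing notes. No deposited cell annotation was used. Barcodes at or above 10% mitochondrial UMIs were dropped, and doublets were called per library with Scrublet (scanpy 1.11.5, Python 3.11.15) and removed where at least 0.5% of cells were called. Each library was clustered alone with Leiden at resolution 1 (2000 variable genes, 30 components, 15 neighbours), without 210 cell cycle genes; the marrow cluster with most stem cell genes was clustered again, a step chosen after seeing the data. A cluster was named from at least 3 markers at 2-fold with no other class leading its top 10 genes.

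Counts were summed and divided by totals (CPM), with 95% exact Poisson intervals, and ratios with exact binomial ones. A gene counts as measured from 20 UMIs in the sum of both sides, and 2-fold as higher or lower. Thinning was without replacement (seed 1). On Poisson counts simulated at the full totals of both libraries, 200 of 12592 genes were changed 4-fold, drawn from the better counted ones. Of these 97.5% were recovered, and 2.22% of unchanged genes passed 2-fold. These counts hold no variation between cells, mice or preparations. The smaller sums of classes and bins were not simulated, so the shares do not stand for them. Named are, per comparison, the 4 highest and 4 lowest members, the most abundant of each role, fixed pairs, the 10 closest other genes over cells (1 of the Car1-GFP ones is not reported here), and the 4 highest and lowest of 2 further lists; Ect2 by class, the globin-tail values and members beyond these were chosen after their values were seen. The members and lists were chosen with earlier results of these data known.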

Additional observations from a re-analysis of the deposited data

How the results depend on the processing

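No paired analysis was possible because each group has 1 library and no result comes from a test. Settings on transcript length, S100a8 and S100a9, single erythroid classes, the whole progenitor cluster, globins in the denominator, depth bins and unnamed clusters were chosen after seeing the data. For Car1-GFP over marrow (log2 0.17, 10 higher, 4 lower) the ratio was 0.56 with TMM and 0.55 with DESeq2 factors (17 higher in each), 0.23 with cells weighted equally, 0.50 without Hmgb2 and Tubb4b, -0.0041 without S100a8 and S100a9 (8 lower), 1.26 for the 16 members with transcripts under 2500 bases (0 lower) and -0.49 for the 27 others (0 higher). For marrow erythroid over other cells (0.27, 1 higher) it was 0.55 without Hmgb2 and Tubb4b, 0.19 with doublets kept, 0.31 at resolution 0.5 (3 higher), 0.32 with cycle genes kept in the clustering (4 higher), 0.042 at 1000 UMIs or more (0 higher) and 0.059 with the progenitor cluster whole, and 2 members were higher at resolution 2 or without globins. For erythroid classes between the libraries (-0.05, 3 higher, 9 lower) it turned to 0.44 with TMM (11 higher, 2 lower), 0.42 with DESeq2 factors (11 higher, 3 lower), 0.038 without Hmgb2 and Tubb4b, 0.14 with the progenitor cluster whole (7 higher), 0.15 in progenitors (7 higher), 0.19 in late cells (6 higher) and 0.66 for the short transcripts (0 lower). It was -0.20 at resolution 0.5, -0.27 with cycle genes kept (14 lower) and -0.56 for the long transcripts (0 higher). For the globin bins (0.67, 10 higher) it was 0.64 without Hmgb2 and Tubb4b, 0.62 with globins in the denominator, 0.91 over 10 bins (24 higher) and 1.03 in the depth bin of rank 3 (35 higher). For Gata2 (-0.56, 0 higher, 6 lower) it was -0.49 unthinned (3 lower), -0.25 at 12000 UMIs or more (1 higher) and -0.39 without unnamed clusters and the top globin bin (3 lower). The share of marrow cells with at least 5 of 1000 UMIs (65.6%) was 40.4% without Hmgb2 and Tubb4b, 49.7% at 3 of 600, 76.1% at 10 of 2000, 80.2% at 3 and 48.5% at 8 of 1000, and that of Car1-GFP cells (71.5%) was 47.0%, 72.7%, 71.9%, 92.0% and 40.4% in the same order, so that marrow was the higher library at 10 of 2000 and at 8 of 1000. The median correlation of a member with the others (0.26) was 0.10 at 1000 UMIs. The direction of the globin and Gata2 results held under every alternative run. Over all genes, TMM factors gave 3736 higher and 3190 lower of 12076 between the libraries, and 3136 and 1774 of 10993 between the erythroid classes. DESeq2 factors gave 3724 and 3197 in the first case, and 3083 and 1819 in the second. Higher over 10 globin bins were 643 of 8924 genes, and in the depth bin of rank 3 they were 719 of 7572. Car1-GFP doublets could not be varied, since all called ones stayed in. Marrow depth, a median of 1031 UMIs, leaves single members with few UMIs in the small classes.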
